A study of Mus musculus with 2 samples.

Results

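The 35 genes described here encode secreted growth factors, matrix proteases, protease inhibitors, insulin-like growth factor (IGF) binding proteins, cytokines and chemokines, together with Plaur, the cell-surface receptor of urokinase. They were taken by symbol from the gene list of the deposited matrices, where 35 of 35 were found among 32245 symbols, and the cell class that supplies each transcript was read at both ages. The libraries come from adrenals of female C57BL/6J mice with the genotype SF1-Cre+;Znrf3Fx/Fx, 1 library from 2 pooled adrenals at 6 weeks, the age the labels call hyperplasia, and 1 from 3 pooled adrenals at 9 weeks, called regression. Cre under the SF1 promoter acts in steroid-producing cells, so that Znrf3, whose product removes Wnt receptors from the cell surface, is deleted there at both ages, and no adrenal with intact Znrf3 was analysed here. Viable nucleated cells (positive for Vybrant DyeCycle Ruby, negative for DAPI) had been sorted after red cell lysis. With 1 library per age there are no replicates and no test. Every comparison is of these 2 libraries, and every interval is a 95% interval that covers counting error only.

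Secreted proteases and their inhibitors set how fast the matrix around a cell is rebuilt, and IGF binding proteins set how much IGF reaches its receptor. In the adrenal, cortical cells lie against fenestrated capillaries, so factors released by either compartment, or by macrophages between them, reach neighbouring cells directly. Many of the 35 genes also appear in lists of what senescent cells secrete.

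After filtering, 8133 cells with 86491599 unique molecular identifiers (UMIs, each marking 1 captured transcript) remained in the 6-week library, and 9941 cells with 88777418 UMIs in the 9-week library. Classes were named from marker genes, and 8 held at least 50 cells in each library. Adrenocortical-like cells numbered 4284 and 2106, macrophage-like cells 987 and 2311, endothelial-like cells 1532 and 1594, T/NK-like cells 405 and 1108, dendritic-like cells 246 and 1140, neutrophil-like cells 192 and 795, B cell-like cells 146 and 378, and monocyte-like cells 152 and 291. Mesenchymal-like cells, a source of many such factors in other organs, were close to absent, with 10 cells at 6 weeks and 4 at 9 weeks. The 2 libraries shared 29 cell barcodes. Znrf3 itself, read at its 3′ end, stood at 45.1 CPM in adrenocortical-like cells (the share of all UMIs of the class that the gene held, on the usual CPM scale) at 6 weeks and 54.1 CPM at 9 weeks, which does not check the deletion, since both libraries carry it and reads from the 3′ end need not fall in the removed exons.

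Where the transcripts lay was the first question. Of the 35 genes, 33 had at least 1 UMI in each library, and Mmp3 and Ereg, a matrix protease and an epidermal growth factor receptor ligand, had 0 in both. At 6 weeks the class that held the most UMIs was adrenocortical-like for 13 genes, macrophage-like for 10, endothelial-like for 7, and T/NK-like, mast or basophil-like and mesenchymal-like for 1 each. At 9 weeks it was adrenocortical-like for 10, macrophage-like for 11, endothelial-like for 6, neutrophil-like for 3, dendritic-like for 2 and T/NK-like for 1. For 29 of 35 genes, Mmp3 and Ereg with no class among them, the answer did not differ between ages. The 6 that differed were Igfbp6, Mmp14, Plaur, Serpine2, Inhba and Il6. This count moves with the number of cells per class, because adrenocortical-like cells made up 52.7% of kept cells at 6 weeks and 21.2% at 9 weeks.

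**Figure D1:**
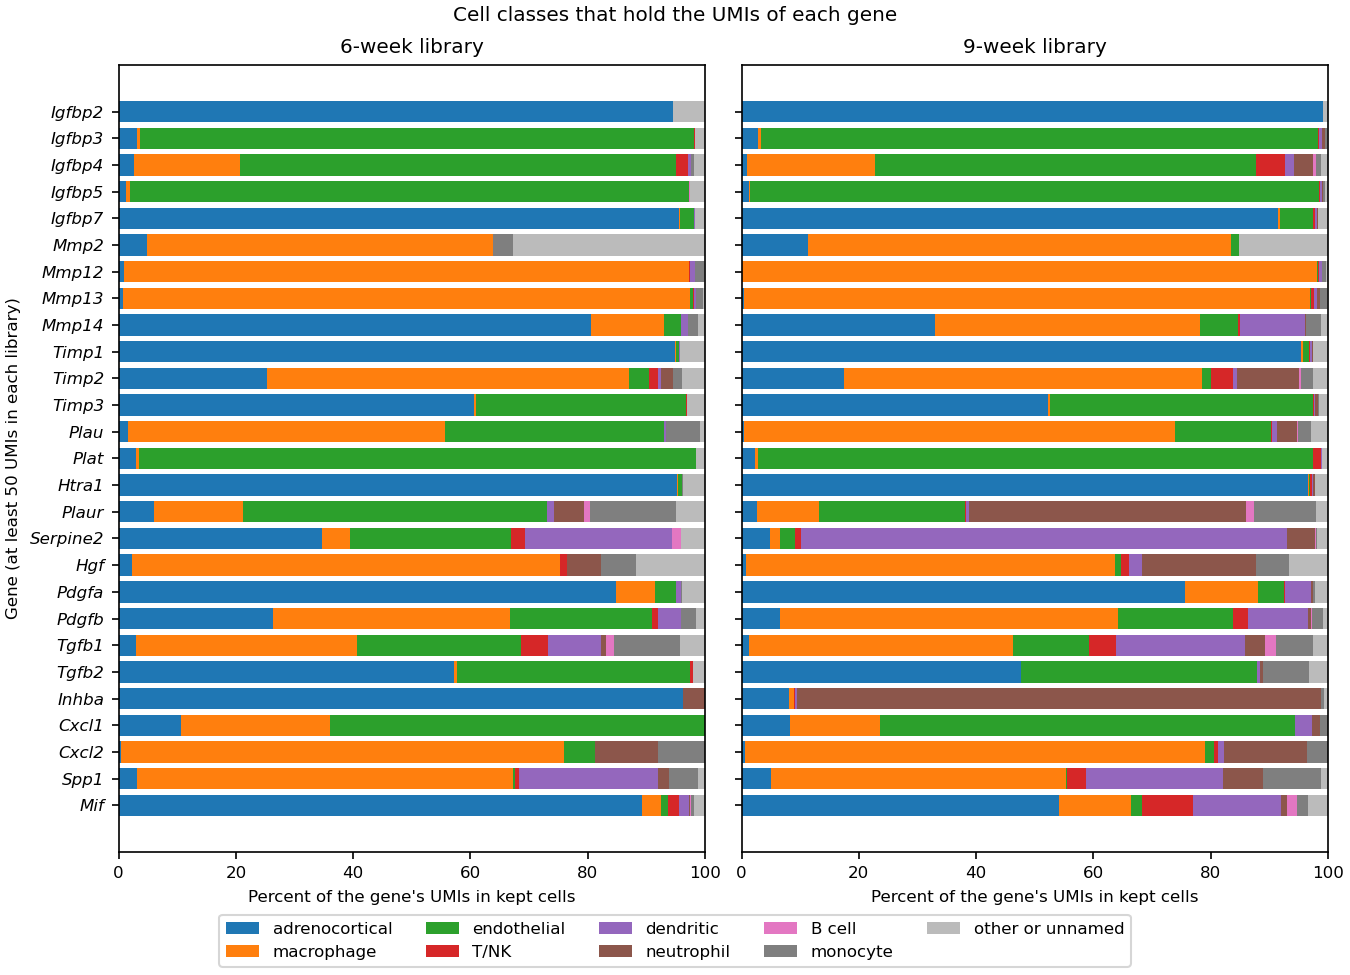
Percent of each gene's UMIs in kept cells (x axis) that lay in each cell class (colours), for members with at least 50 UMIs in each library (y axis), in the 6-week library (left) and the 9-week library (right). Igfbp3, Igfbp5 and Plat are endothelial-like at both ages, Mmp12 and Mmp13 macrophage-like, and Igfbp2, Timp1 and Htra1 adrenocortical-like, while the bars of Serpine2 and Inhba pass from adrenocortical-like cells to dendritic-like and neutrophil-like cells.

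Several genes were nearly restricted to 1 class by UMIs. Adrenocortical-like cells held 95.5% of Igfbp7 UMIs at 6 weeks and 91.4% at 9 weeks, 94.8% and 95.4% of those of Timp1, an inhibitor of matrix metalloproteases, and 95.2% and 96.6% of those of Htra1, a secreted serine protease that cleaves matrix proteins. Of all UMIs in kept cells, this class held 77.6% and 35.5%. By level Igfbp7 was not restricted to it, with 519 and 1002 CPM in endothelial-like cells next to 1100 and 2294 CPM. The few mesenchymal-like cells, described at the end, stood higher still. Endothelial-like cells held 94.6% and 94.9% of the UMIs of Igfbp3, 95.4% and 97.1% of those of Igfbp5, and 94.97% and 94.6% of those of Plat, tissue plasminogen activator. Macrophage-like cells held 96.4% and 98.1% of the UMIs of Mmp12, macrophage elastase, and 96.7% and 96.5% of those of Mmp13, a collagenase. Igfbp2 was scarce, but 69 of 73 UMIs at 6 weeks and 119 of 120 at 9 weeks lay in adrenocortical-like cells.

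Other genes had divided sources. Timp3, an inhibitor that stays bound to matrix, had 60.6% of its UMIs in adrenocortical-like and 35.9% in endothelial-like cells at 6 weeks, and 52.2% and 44.8% at 9 weeks. Its level per class ran the other way. Endothelial-like cells had 3065 CPM (3008 to 3123) then 3402 CPM (3348 to 3457), adrenocortical-like cells at 275.5 CPM (271.6 to 279.5) and 555 CPM (547 to 564), so the class with the most Timp3 UMIs was not the class with the highest level. Tgfb1, transforming growth factor beta 1, was spread widely, with macrophage-like cells holding 37.8% of its UMIs at 6 weeks and 45.0% at 9 weeks, endothelial-like cells 27.85% and 12.96%, and dendritic-like cells 9.02% and 21.9%. Pdgfb, a platelet-derived growth factor chain that recruits mural cells, was led by macrophage-like cells at both ages (40.4% and 57.5%), although its level was 116 CPM (105 to 127) and 138 CPM (127 to 150) in endothelial-like cells and 107 CPM (99.2 to 115) and 101 CPM (96.6 to 106) in macrophage-like cells, with intervals that overlapped at 6 weeks and not at 9 weeks. Mif, macrophage migration inhibitory factor, had 89.3% of its UMIs in adrenocortical-like cells at 6 weeks and 54.2% at 9 weeks. Its level there was 453 and 338 CPM, next to 360 and 322 CPM in T/NK-like cells. Mmp14 had 80.6% of its UMIs in adrenocortical-like cells at 6 weeks, and at 9 weeks 33.0% there and 45.1% in macrophage-like cells. Among the compared classes its level was highest in macrophage-like cells at both ages, at 51.5 and 69.7 CPM. Of all UMIs in kept cells, adrenocortical-like cells held 77.6% at 6 weeks and 35.5% at 9 weeks. The part of this mix in the shares of Mif and Mmp14 was not tested.

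Pdgfa had 84.8% of its UMIs in adrenocortical-like cells at 6 weeks and 75.6% at 9 weeks, Igfbp4 74.4% and 64.9% in endothelial-like cells, and Timp2 61.8% and 61.04% in macrophage-like cells. Macrophage-like cells also led for Cxcl2, a neutrophil chemokine, with 75.6% and 78.3%, and for Spp1, osteopontin, with 64.2% and 50.3%.

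Other members were scarce, and their sources rest on few UMIs. Tgfb2 had 111 of 194 UMIs in adrenocortical-like cells at 6 weeks and 103 of 216 at 9 weeks, most of the rest being endothelial-like. Fgf2, a broad fibroblast growth factor, had 26 of 39 and 47 of 73 UMIs in adrenocortical-like cells, and Fgf7, a growth factor for epithelia, had 14 of 17 there at 6 weeks, then 4 of 11, tied with 4 in macrophage-like cells. Hgf, hepatocyte growth factor, had 62 of 85 and 189 of 300 UMIs in macrophage-like cells, Mmp2, a gelatinase, 36 of 61 and 57 of 79, and Plau, urokinase, 139 of 257 and 416 of 565. Cxcl1, a neutrophil chemokine, had 48 of 75 and 51 of 72 UMIs in endothelial-like cells, and Cxcl12, the ligand of Cxcr4, 29 of 82 and 14 of 33. Igfbp6 had 19 of 49 UMIs in the 10 mesenchymal-like cells at 6 weeks and 122 of 168 in neutrophil-like cells at 9 weeks. Il6 had 9 of 17 UMIs in mast or basophil-like cells at 6 weeks and 18 of 33 in dendritic-like cells at 9 weeks. The sources of 3 of these genes depended on the cell filters. With called doublets kept, Il6 was led by dendritic-like cells at both ages and Cxcl12 by mesenchymal-like cells at 6 weeks. With at least 1000 genes per cell, Il6 was again dendritic-like at both ages, Igfbp6 was mesenchymal-like at both ages, and Cxcl12 was mesenchymal-like at 6 weeks and macrophage-like at 9 weeks.

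**Figure D2:**
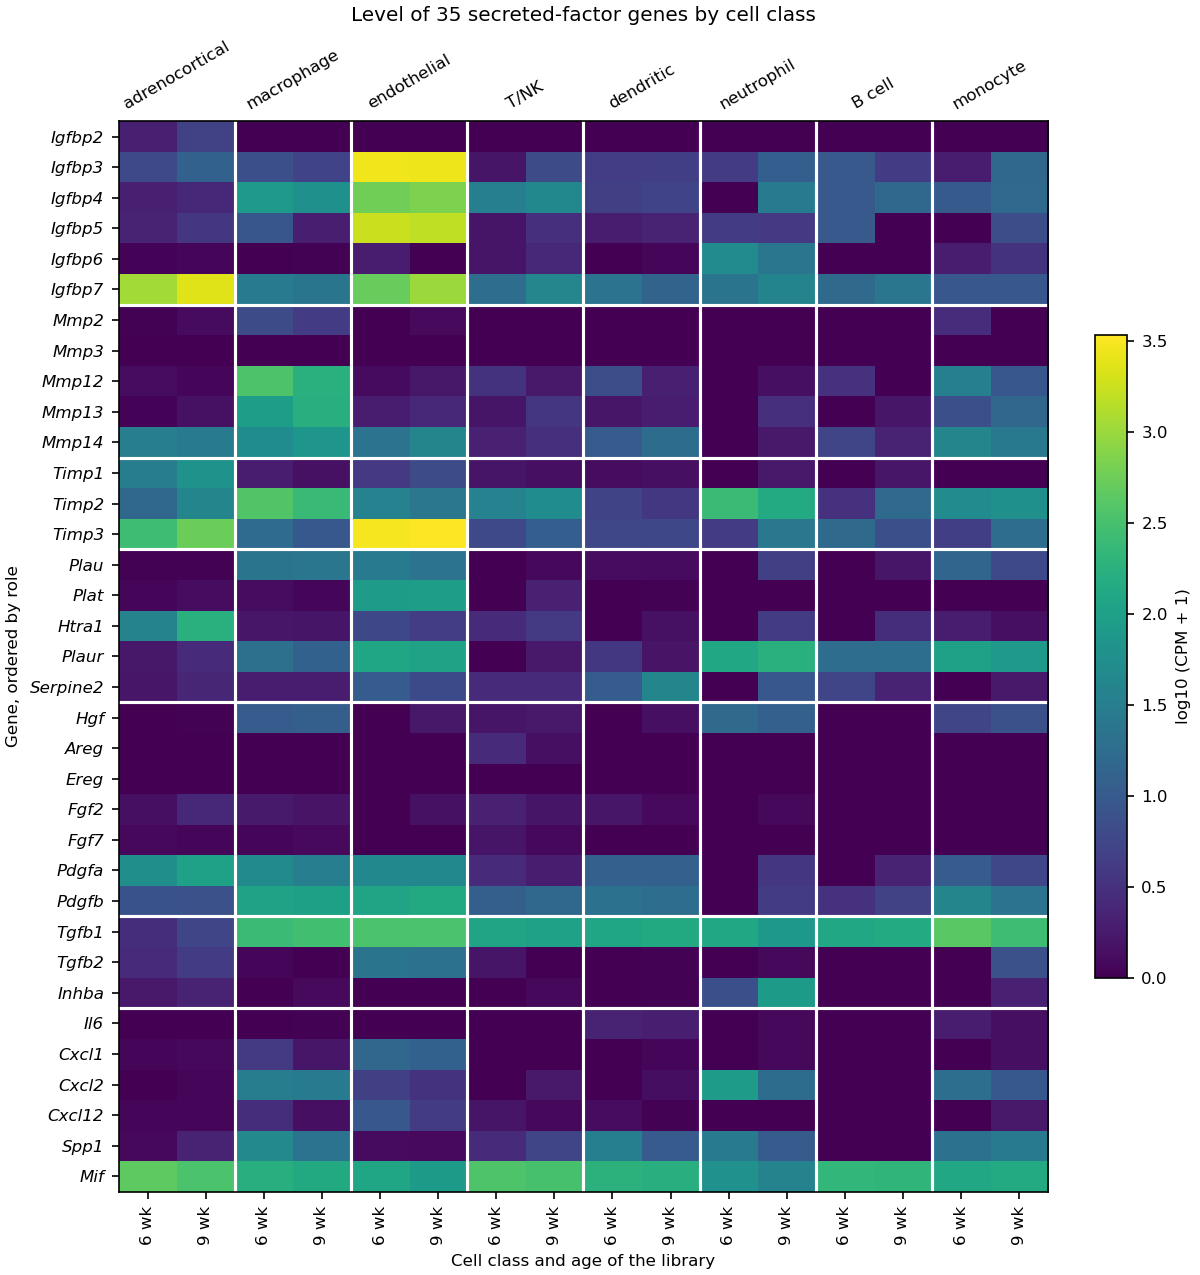
Level of the 35 genes (y axis, ordered by role, with white lines between roles) in the 8 compared classes at 6 and 9 weeks (x axis), coloured by log10 of CPM plus 1. Igfbp3, Igfbp5 and Timp3 are brightest in endothelial-like cells, Igfbp7 in adrenocortical-like cells, and the rows of Mmp3 and Ereg are empty.

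In adrenocortical-like cells, 7 members were higher at 9 weeks and 0 lower. A gene was counted as measured in a class when it had 10 CPM or more in either library and 10 or more UMIs in all, and called when the ratio of 9 over 6 weeks, with 5 CPM added to each level, passed 1.5-fold. Of the 35 genes 9 were measured, and Mmp14 and Mif were the 2 not called. Over all 8600 genes measured in these cells 7.91% were called higher and 4.09% lower. The median log2 ratio was 1.00 over the 9 members and 0.07 over all measured genes. A gene that is measured only through the library where it is high has to differ, so the count describes the 9 and not the other 26 genes. Of the 7 called, Igfbp3 was measured only in that way. The members were also chosen with earlier results of these data known. Trimmed mean scaling moved the median of all genes in this class to -0.10, and under it Igfbp3 was not called and Mif was called lower, at -0.59.

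The protease Htra1 had the largest ratio. Its level was 36.55 CPM (35.1 to 38.0) in the 6-week library against 175 CPM (170 to 179) in the 9-week library, a ratio of 4.78 (4.56 to 5.01), and its UMIs were found in 18.1% and 57.0% of cells. With each cell thinned to 2000 UMIs these shares were 6.24% and 27.1%. In T/NK-like cells, which are not a known source of Htra1, 0.494% and 0.993% of cells carried a UMI, at median depths of 3542 and 3974 UMIs against 15525.5 and 14783 in adrenocortical-like cells. All 3 metalloprotease inhibitors were higher too. Timp1 went from 29.0 CPM (27.7 to 30.3) to 64.7 CPM (61.9 to 67.6), Timp2 from 14.5 CPM (13.6 to 15.4) to 39.8 CPM (37.6 to 42.0), and Timp3 from 275.5 to 555 CPM as given above. None of these intervals overlapped between ages.

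Igfbp7, a matrix-deposited protein of the IGF binding family, went from 1100 CPM (1092 to 1108) to 2294 CPM (2278 to 2311), a ratio of 2.09. Almost every adrenocortical-like cell carried it, 97.9% at 6 weeks and 98.6% at 9 weeks, or 77.5% and 90.5% with cells thinned to 2000 UMIs. In T/NK-like cells the shares were 4.20% and 4.69%, at the depths given for Htra1. Over all kept cells of the gland its level was 894 CPM at 6 weeks and 892 CPM at 9 weeks, with adrenocortical-like cells holding 77.6% of all UMIs in the first library and 35.5% in the second. Pdgfa, a growth factor for mesenchymal cells, went from 56.1 CPM (54.3 to 57.9) to 105 CPM (101 to 109). Igfbp3 went from 5.08 to 11.4 CPM in adrenocortical-like cells, next to 2818 and 2751 CPM in endothelial-like cells, and it lost its call under 6 of the 8 alternative settings. With free RNA subtracted its log2 ratio was 0.62, still past 1.5-fold, but the gene no longer counted as measured. Mmp14, a membrane-bound protease that activates Mmp2, stood at 31.8 and 28.4 CPM, and Mif at 453 and 338 CPM, neither called.

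The class contained 4 large clusters whose proportions differed sharply between libraries. Cluster 2, led by Cyp2f2, held 2253 cells at 6 weeks and 190 at 9 weeks. Cluster 3, led by Cyp11b1, the last enzyme of corticosterone synthesis, held 944 and 554. Clusters 4 and 5, both with Ly6d and Wnt4 among their leading genes and with Ecrg4 leading the first, held 620 and 713 cells and 424 and 617 cells. Timp1, Timp2, Timp3, Htra1, Pdgfa and Igfbp7 were each higher in clusters 4 and 5 than in clusters 2 and 3 at both ages.

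Within these clusters the differences between ages were smaller. Timp1 stood at 124 CPM (6 weeks) and 104.5 CPM (9 weeks) in cluster 4, and at 114 and 102 CPM in cluster 5, against 2.105 and 2.66 CPM in cluster 2. Pdgfa stood at 219 and 186.5 CPM in cluster 4 and at 136 and 136.5 CPM in cluster 5, and Timp3 at 933 and 1045 CPM in cluster 4 and at 592 and 606 CPM in cluster 5. None of these 6 values passed 1.5-fold within its cluster. Each of the 4 clusters was then given the same weight at both ages, set by its cells in both libraries together (called clusters weighted alike). The log2 ratios were then -0.16 for Timp1, -0.11 for Pdgfa and 0.05 for Timp3, none of which passed 1.5-fold.

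Htra1 kept a difference inside both clusters that express it. Its level in cluster 4 was 130 CPM (123 to 137) in the 6-week library against 230.5 CPM (221 to 240) in the 9-week library, and in cluster 5 230 CPM (217 to 244) and 380 CPM (366 to 394), while cluster 2 stayed under 1 CPM at both ages. With clusters weighted alike its log2 ratio was 0.73, the only one of the 7 that still passed 1.5-fold. Igfbp7 was higher at 9 weeks in each of the 4 clusters, from 784 to 969 CPM in cluster 2, 944 to 1255 in cluster 3, 1320 to 1807 in cluster 4 and 3601 to 4850 in cluster 5, with a weighted log2 ratio of 0.40 that did not pass. Timp2 stood at 58.3 CPM (51.7 to 65.5) and 89.8 CPM (83.3 to 96.7) in cluster 5, with a weighted log2 ratio of 0.36. Mmp14 and Mif, in contrast, were higher in clusters 2 and 3 than in clusters 4 and 5 at both ages.

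**Figure D3:**
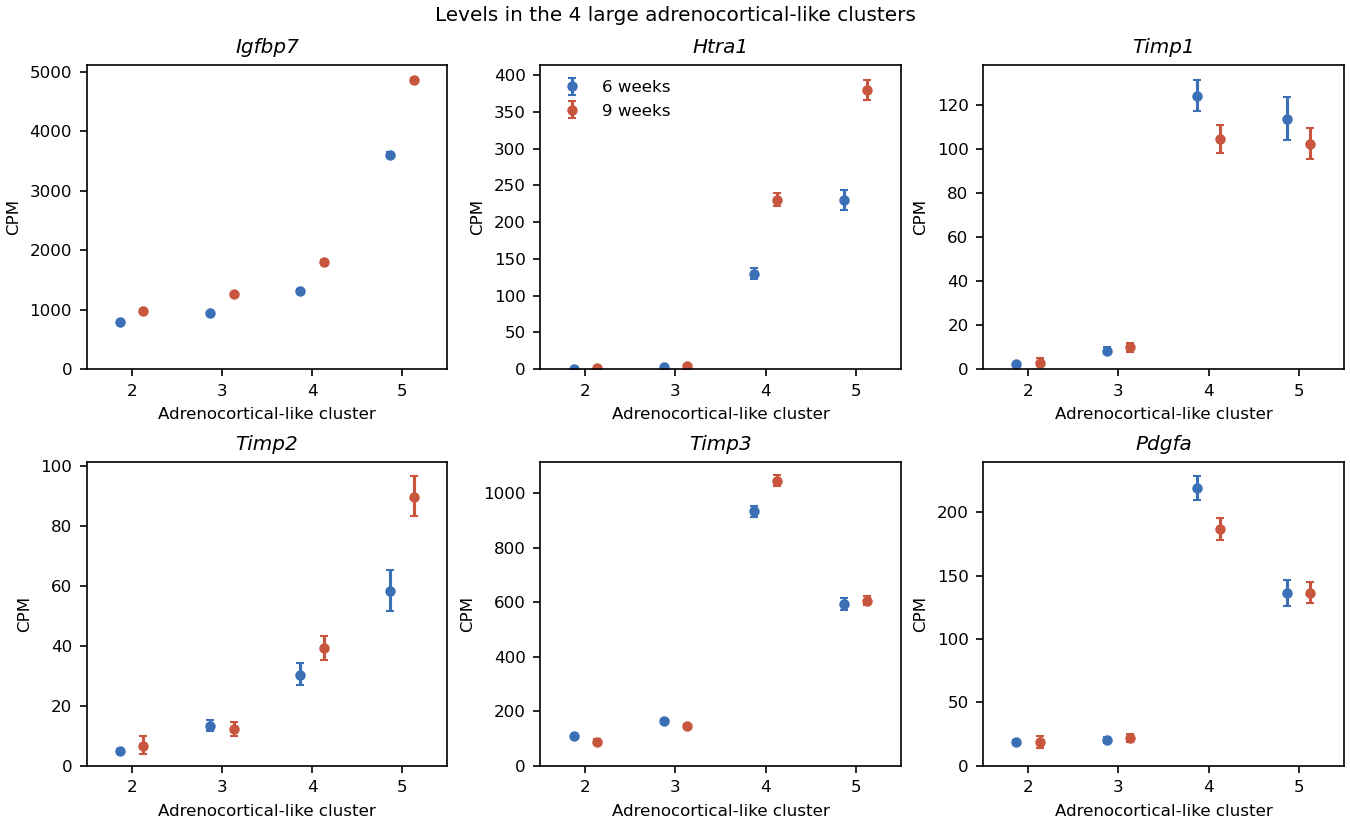
Level in CPM (y axis, from 0) of 6 members in the 4 large adrenocortical-like clusters (x axis) at 6 weeks (blue) and 9 weeks (red), with bars for the 95% Poisson interval of the count. Timp1, Timp3 and Pdgfa sit at like heights at both ages in clusters 4 and 5, while Htra1 goes from 130 to 230.5 CPM in cluster 4 and from 230 to 380 CPM in cluster 5.

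**Figure D4:**
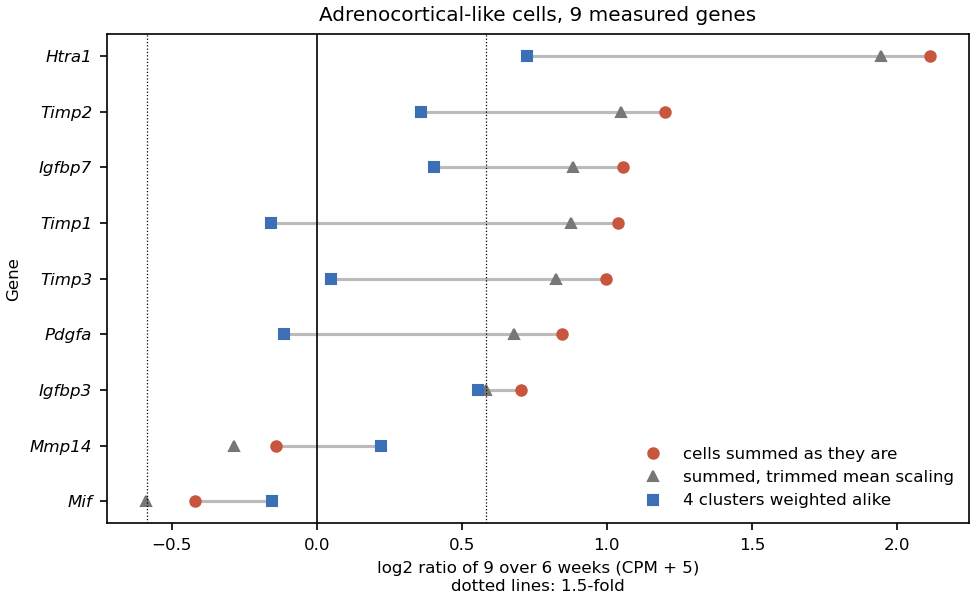
Log2 ratio of 9 over 6 weeks (x axis, 5 CPM added to each level) for the 9 members measured in adrenocortical-like cells (y axis), with cells summed as they are (red circles), with trimmed mean scaling (grey triangles) and with each of the 4 clusters given the same weight at both ages (blue squares). Dotted lines mark 1.5-fold; Htra1 alone stays past the upper line as a blue square.

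Markers of other cell types and genes of cell stress also moved with the age in this class. The summed level of 7 macrophage markers was 12.8 CPM at 6 weeks and 77.7 CPM at 9 weeks in adrenocortical-like cells, with none at 0, and that of 7 neutrophil markers 3.41 and 103 CPM, with 2 at 0 at 6 weeks. Among 15 genes known to respond to tissue dissociation 11 were measured, 5 were higher (Nr4a1, Egr1 and Dusp1 by the largest ratios) and 0 lower, beside the 7.91% and 4.09% of all measured genes. The part of these in the members' levels was not tested. Macrophage-like cells held Htra1 at 0.622 and 0.570 CPM, Timp1 at 0.934 and 0.456 CPM and Igfbp7 at 27.2 and 22.7 CPM. After free RNA was subtracted 6 of the 7 calls remained, all but Igfbp3, which no longer counted as measured.

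The upstream sequences of Igfbp7 and Timp1 are shown because adrenocortical-like cells held most UMIs of both genes at both ages, and Igfbp7 was higher at 9 weeks in all 4 cortical clusters while Timp1 was not. They are the 250 bases before the RefSeq transcription start on GRCm38.p6, from chr5:77408046-77408295 (minus strand) for Igfbp7 and chrX:20869916-20870165 (plus strand) for Timp1, read 5′ to 3′ with GC boxes in capitals.
Igfbp7: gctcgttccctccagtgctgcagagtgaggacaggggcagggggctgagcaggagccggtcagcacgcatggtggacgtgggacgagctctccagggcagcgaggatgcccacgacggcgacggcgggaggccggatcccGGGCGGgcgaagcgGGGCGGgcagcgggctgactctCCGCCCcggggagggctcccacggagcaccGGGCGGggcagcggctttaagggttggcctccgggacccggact
Timp1: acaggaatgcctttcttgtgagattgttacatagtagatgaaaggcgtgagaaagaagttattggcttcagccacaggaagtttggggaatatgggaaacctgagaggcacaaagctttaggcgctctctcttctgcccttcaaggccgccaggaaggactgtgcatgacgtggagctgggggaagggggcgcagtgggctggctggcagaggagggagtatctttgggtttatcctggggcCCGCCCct
Igfbp7 held 4 GC boxes and Timp1 held 1, near its start. Motifs were searched on both strands. The GC box was read as the letters GGGCGG. The TATA box was read as TATAAA. For AP-1, the Fos and Jun dimer, the letters were TGANTCA. For TCF/LEF, the nuclear partners of Wnt signalling, they were CTTTGAT. For SF-1, the steroidogenic factor, they were CAAGGTCA. No 2 matches of different motifs overlapped in the sequences printed here. Over all 32851 RefSeq promoters of that length, 32.7% held a GC box, 12.4% TATA, 6.75% AP-1, 3.21% TCF/LEF and 1.33% SF-1. For 30 of the 35 members promoters were found, 35 promoters in all, since some members have more than 1. A member was counted when any of its promoters held the motif. Of the 30 members 16 held a GC box, 8 TATA, 6 AP-1, 1 TCF/LEF (Cxcl12) and 0 SF-1. These counts are per gene and the percentages per promoter, so they are not like for like. A match is a run of letters and not a bound site.

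Timp1 and Timp3 each lie inside a gene on the opposite strand in GENCODE M21, Syn1 and Syn3, and Igfbp7 and Htra1 overlap Polr2b and Fgfr2 on the opposite strand. Timp2 overlaps Cep295nl on the same strand, so counting by strand would not separate these genes. All these overlaps are of whole gene spans, and overlap of exons was not examined. The sources used here do not say whether the counting used strand, so reads of such partners cannot be told apart from those of the members.

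In endothelial-like cells, 2 members were higher at 9 weeks and 0 lower, of 16 measured. Over all genes measured there 1.34% were called higher and 1.26% lower, and the median log2 ratio was -0.02 over the 16 members and 0.01 over all genes. The genes that mark this class among the members hardly moved. Igfbp3, the main carrier of circulating IGF, had 2818 CPM (2763 to 2873) then 2751 CPM (2702 to 2800), Igfbp5 at 1762 and 1537 CPM, Igfbp4 at 582 and 684 CPM, and Plat at 89.9 and 91.0 CPM.

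Igfbp7 was 1 of the 2 called higher. Its endothelial-like level was 519 CPM (495 to 543) in the 6-week library against 1002 CPM (973 to 1032) in the 9-week library, a ratio of 1.93 (1.83 to 2.04), and was found in 50% and 72.6% of cells, or 49.6% and 68.2% with cells thinned to 2000 UMIs. In T/NK-like cells, which are not known to make it, 4.20% and 4.69% of cells carried an Igfbp7 UMI, at median depths of 3542 and 3974 UMIs against 2103.5 and 2619 in endothelial-like cells. The Igfbp7 level in the same T/NK-like cells was 17.4 and 42.4 CPM and was called higher, with a log2 ratio of 1.08 beside 0.94 in endothelial-like cells. With free RNA subtracted Igfbp7 no longer counted as measured in T/NK-like cells, at a log2 ratio of 0.90, and the endothelial-like call held. The higher level was present in both endothelial-like clusters. Cluster 0, with 1421 and 1487 cells, went from 552 to 1034 CPM, and cluster 18, with 111 and 107 cells, from 125 CPM (87.3 to 174) to 586.5 CPM (505.4 to 677). In endothelial-like cells the summed level of 9 adrenocortical markers, whose cells hold most Igfbp7, was 868 CPM at 6 weeks and 633 CPM at 9 weeks, while that of 7 neutrophil markers was 13.4 and 481.5 CPM. Mmp14, the other one called, had 21 CPM (16.5 to 26.3) then 39.9 CPM (34.2 to 46.2). The calls of Igfbp7 and Mmp14 in this class held under all 8 alternative settings tried.

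The 2 endothelial-like clusters differed in which factors they carried. Tgfb2, transforming growth factor beta 2, had 70 UMIs in cluster 18 and 7 in cluster 0 at 6 weeks, and 79 and 8 at 9 weeks. Its level in cluster 18 was 251 CPM (195 to 317) and 248 CPM (196 to 309). Cxcl12 had 29 UMIs in cluster 18 and 0 in cluster 0 at 6 weeks, then 10 and 4 at 9 weeks, and was called lower in cluster 18 at 104 and 31.4 CPM. Plau went the other way, with 96 and 92 UMIs in cluster 0 and 0 in cluster 18 at both ages. Igfbp5 stood at 4364 and 3996 CPM in cluster 18 against 1542 and 1345 CPM in cluster 0, and Igfbp4 at 132 and 100 CPM against 620.5 and 730 CPM. Because the clusters were built from these cells' genes, these contrasts describe the clusters and test nothing.

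In macrophage-like cells, 1 member was higher at 9 weeks and 3 were lower, of 16 measured. Over all genes measured there 1.59% were called higher and 2.55% lower, and the median log2 ratio was -0.25 over the members and 0.03 over all genes. Mmp13 was the higher one, at 92.0 CPM (84.7 to 99.7) and 164 CPM (158 to 170). Mmp12 was lower, at 352 CPM (337 to 367) and 176 CPM (170 to 182), as were Spp1 at 44.65 CPM (39.6 to 50.1) and 21.1 CPM (18.99 to 23.3), and Timp3, at 16.3 and 8.49 CPM. With clusters weighted alike none of the 4 stayed past 1.5-fold. In these cells the summed level of 7 neutrophil markers was 50.4 and 253 CPM and that of 4 erythroid markers 0.311 and 146 CPM. The summed level of 9 adrenocortical markers in them was 681 and 328 CPM, with 7 measured and 4 lower. The Timp3 call was also lost with free RNA subtracted, with doublets kept and at cluster resolution 0.5. The part of these markers in the members' levels was not tested.

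The cluster values show where these 2 proteases sat. Cluster 19, with 112 and 103 cells and Mmp12 and Trem2 among its leading genes, held Mmp12 at 1931 CPM (1846 to 2019) and 2338 CPM (2247 to 2432). Cluster 1, the largest, with 522 and 1966 cells, held it at 79.0 and 34.55 CPM, and cluster 13, led by Retnla with Pf4 and 298 and 55 cells, had 0 Mmp12 UMIs at both ages. Spp1 followed Mmp12 into cluster 19, at 266 and 324 CPM, with 4.04 and 1.29 CPM in cluster 1. The lower class level of both genes at 9 weeks thus went with higher levels in the cluster that expresses them most. Mmp13 was less concentrated. It stood at 124 and 169 CPM in cluster 1, 22.0 and 36.75 CPM in cluster 13, 106 CPM (86.7 to 128) and 272 CPM (241.5 to 305) in cluster 19, and 106 and 105 CPM in cluster 20, which carried genes of dividing cells.

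The other 12 measured members were not called in macrophage-like cells. Tgfb1 stood at 253 and 293.5 CPM, Pdgfb at 107 and 101 CPM, Hgf at 9.65 and 10.8 CPM, and Cxcl2 at 29.4 and 27.4 CPM. Timp2, for which this was the leading class, stood at 369 and 249 CPM, a log2 ratio of -0.56 just short of 1.5-fold. Plaur stood at 18.98 and 11.6 CPM, Pdgfa at 46.4 and 31.2 CPM and Igfbp4 at 78.9 and 57.8 CPM, with Plaur called lower at a pseudocount of 1 CPM and Pdgfa called lower with doublets kept. Within cluster 1, Cxcl2 stood at 6.84 CPM (22 UMIs) and 21.9 CPM (305 UMIs), while cluster 19 held it at 162 and 156 CPM.

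The promoter of Mmp13 is shown because this gene was nearly confined to macrophage-like cells by UMIs and carries 2 of the searched motifs close to its start. The 250 bases before its RefSeq start, from chr9:7272264-7272513 (plus strand, GRCm38.p6), are given 5′ to 3′ with AP-1 and TATA letters in capitals.
Mmp13: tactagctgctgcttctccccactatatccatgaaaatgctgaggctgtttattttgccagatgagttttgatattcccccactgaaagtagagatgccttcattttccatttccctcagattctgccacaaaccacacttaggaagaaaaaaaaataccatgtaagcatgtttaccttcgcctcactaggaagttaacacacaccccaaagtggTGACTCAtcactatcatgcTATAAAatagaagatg
The AP-1 letters began at base 216 and the TATA letters at base 235 of these 250.

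**Figure D5:**
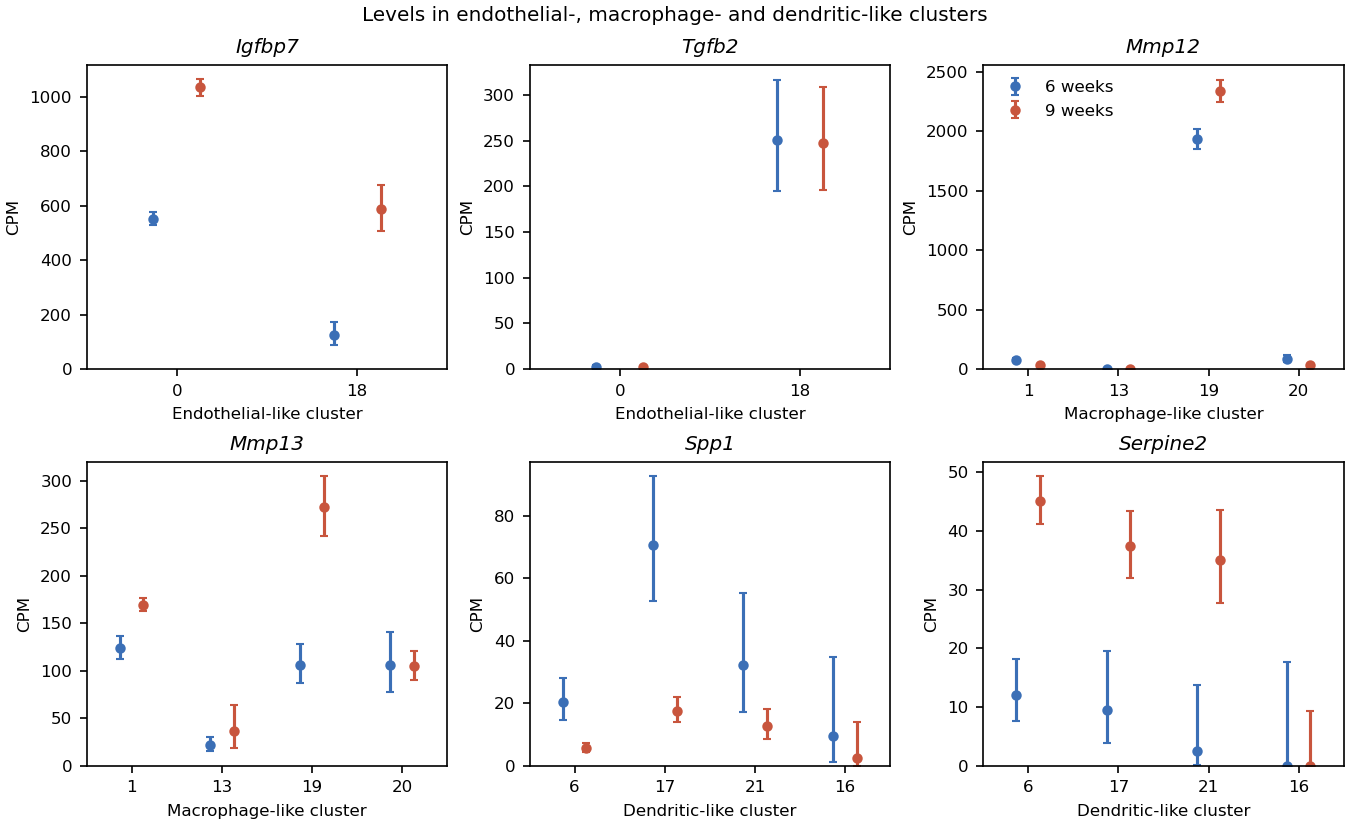
Level in CPM (y axis, from 0) of members in endothelial-like, macrophage-like and dendritic-like clusters (x axis) at 6 weeks (blue) and 9 weeks (red), with bars for the 95% Poisson interval of the count. Igfbp7 is higher at 9 weeks in both endothelial-like clusters, Mmp12 stands out in cluster 19 at both ages, and Serpine2 is higher at 9 weeks in dendritic-like clusters 6, 17 and 21.

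In dendritic-like cells, 2 members were higher at 9 weeks and 1 lower, of 8 measured. Over all genes measured there 1.4% were called higher and 2.09% lower, and the median log2 ratio was -0.08 over the members and 0.06 over all genes. The called members, Serpine2, Mmp14 and Spp1, each reached 10 CPM only in the library where they were high. A gene measured only in that way has to differ, so the count describes the 8 measured genes alone. Serpine2, protease nexin-1, which inhibits thrombin and urokinase, went from 9.53 CPM (6.48 to 13.5) to 40.9 CPM (38.0 to 43.9), a ratio of 4.29 (3.00 to 6.36). It was found in 9.76% and 34.7% of dendritic-like cells, or 1.24% and 7.73% with cells thinned to 2000 UMIs. In T/NK-like cells 0.741% and 0.451% carried it, at median depths of 3542 and 3974 UMIs against 12902.5 and 14979 in dendritic-like cells. Spp1 went from 32.6 CPM (26.7 to 39.4) to 9.49 CPM (8.13 to 11.0). The calls of Serpine2 and Spp1 held under all 8 alternative settings, and that of Mmp14, at 9.225 and 16.55 CPM, was lost under 4 of them.

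Both differences were present in the 3 clusters with Xcr1, a marker of type 1 dendritic cells, among their leading genes. Serpine2 stood at 12.1 and 45.1 CPM in cluster 6, at 9.50 and 37.4 CPM in cluster 17, and at 2.48 and 35.04 CPM in cluster 21, where the 6-week value was 1 UMI. Cluster 16, led by Cd209a, a marker of type 2 dendritic cells, had 0 Serpine2 UMIs at both ages, in 26 and 47 cells. Spp1 stood at 20.5 and 5.63 CPM in cluster 6, 70.6 and 17.6 CPM in cluster 17 and 32.3 and 12.7 CPM in cluster 21. In the dendritic-like cells the summed level of 10 T/NK markers was 27.1 CPM at 6 weeks and 176 CPM at 9 weeks, and its part in these values was not tested. T/NK-like cells held Serpine2 at 1.69 and 1.71 CPM. Over the gland, Serpine2 passed from 43 of 124 UMIs in adrenocortical-like, 34 in endothelial-like and 31 in dendritic-like cells at 6 weeks to 741 of 895 UMIs in dendritic-like cells at 9 weeks.

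In neutrophil-like cells, 5 members were higher and 6 lower, of 13 measured, but over all genes measured there 26.1% were called higher and 33.5% lower. The higher ones were Igfbp3, Igfbp4, Igfbp7, Timp3 and Inhba, and the lower ones Igfbp6, Timp2, Tgfb1, Cxcl2, Spp1 and Mif. This class was made of different cells at the 2 ages. Cluster 7 held 191 and 440 cells, and cluster 12, with Camp and Ngp of immature neutrophils among its leading genes, held 1 and 355. Within cluster 7, Igfbp6 stood at 51.1 CPM (16 UMIs) and 132 CPM (119 UMIs), Timp2 at 243 and 302 CPM, Plaur at 125 and 136 CPM, and Tgfb1 at 128 and 117 CPM. Of these 4 genes Igfbp6 alone passed 1.5-fold. Plaur had 51.9% of its UMIs in endothelial-like cells at 6 weeks and 47.3% in neutrophil-like cells at 9 weeks, while its level in endothelial-like cells was 117 and 108 CPM.

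Inhba, the activin A subunit, lay mainly in cluster 12 at 9 weeks. It had 2 UMIs in neutrophil-like cells at 6 weeks and 439 at 9 weeks, of which 438 lay in cluster 12 at 101 CPM (91.6 to 111). Cluster 7 held 1 Inhba UMI at 9 weeks. Adrenocortical-like cells held 51 and 40 Inhba UMIs, at 0.760 and 1.27 CPM, so its leading class passed from adrenocortical-like to neutrophil-like without a high cortical level at either age. Since cluster 12 had 1 cell at 6 weeks, no comparison of Inhba between ages within that cluster could be made. The promoter of Inhba is shown because 438 of its 491 UMIs at 9 weeks lay in that cluster, while at 6 weeks 51 of 53 lay in adrenocortical-like cells. The 250 bases come from chr13:16011601-16011850 (plus strand, GRCm38.p6, RefSeq start), 5′ to 3′, with TATA letters in capitals at base 160.
Inhba: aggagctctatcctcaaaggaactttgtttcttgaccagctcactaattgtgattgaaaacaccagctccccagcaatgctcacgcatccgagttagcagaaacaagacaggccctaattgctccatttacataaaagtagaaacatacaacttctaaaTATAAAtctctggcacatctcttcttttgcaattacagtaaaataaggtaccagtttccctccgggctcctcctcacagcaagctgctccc

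In monocyte-like cells, 3 members were higher and 5 lower, of 14 measured, against 7.07% and 3.78% of all genes measured. The higher ones were Igfbp3 at 0.891 CPM (1 UMI) and 14.45 CPM (38 UMIs), Timp3 at 3.56 CPM (4 UMIs) and 17.1 CPM (45 UMIs), and Mmp13 at 6.24 CPM (7 UMIs) and 13.7 CPM (36 UMIs). At resolution 0.5 the Igfbp3 log2 ratio was -0.88 and the Timp3 call was lost. Pdgfb was lower at 39.2 and 21.3 CPM. Tgfb1 had 428.5 CPM (391 to 468.5) then 274 CPM (254 to 295), with the call lost when doublets were kept or clusters were coarser. Mmp12 stood at 32.1 and 7.98 CPM, Plau at 13.4 and 4.94 CPM and Cxcl2 at 17.8 and 8.36 CPM, each from 36 UMIs or fewer per library. Igfbp3, Timp3, Mmp13, Mmp12, Plau and Cxcl2 each reached 10 CPM only in the library where they were high. Such genes have to differ, so the counts in this class describe the 14 measured genes alone. In T/NK-like cells 2 of 7 measured members were higher and 0 lower (3.62% and 2.73% of all genes), Igfbp7 at 17.4 and 42.4 CPM and Timp3 at 5.06 and 10.4 CPM. Both calls were lost when free RNA was subtracted, since neither gene then counted as measured. In B cell-like cells 1 of 7 was higher and 1 lower (15.0% and 5.54% of all genes), Timp2 at 2.20 CPM (1 UMI) and 15.4 CPM (24 UMIs) and Timp3 at 15.4 CPM (7 UMIs) and 6.40 CPM (10 UMIs), and the Timp3 call was also lost on that subtraction. Timp3 in T/NK-like cells, and Timp2 and Timp3 in B cell-like cells, also reached 10 CPM only in the library where they were high. T/NK-like cells were the class with the most UMIs of Areg, amphiregulin, with 3 of 3 UMIs at 6 weeks and 2 of 2 at 9 weeks.

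Over all kept cells of the gland, 17 members were measured, 8 were higher at 9 weeks and 1 was lower, against 15.1% and 13.2% of all genes. These levels combine the level per class with the mix of classes. Tgfb1 went from 49.85 to 129 CPM although its level in endothelial-like cells was 336 CPM at both ages and the macrophage-like call did not pass. Mif, the lower member, went from 394 to 222 CPM, while its level within adrenocortical-like cells was not called. Timp1, at 23.7 and 24.1 CPM, and Timp3, at 353 and 378 CPM, were nearly level over the gland and higher within adrenocortical-like cells summed as they are. With the cortical clusters weighted alike their log2 ratios there were -0.16 and 0.05, neither past 1.5-fold. Htra1 and Mmp13 were higher both over the gland (29.8 and 64.3 CPM, 7.06 and 33.5 CPM) and within their leading class. With clusters weighted alike the Htra1 call in that class held and the Mmp13 call was lost.

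Receptors and partners of these factors were read from lists of related genes. In adrenocortical-like cells, where 7.91% of all measured genes were called higher and 4.09% lower, 3 of 13 measured receptors were higher and 0 lower. They were Cd74, a surface receptor of Mif, at 26.8 and 182 CPM, Fgfr4 at 8.91 and 18.2 CPM, and Cd44, a receptor of osteopontin, at 7.24 and 15.2 CPM. Cd74 was also higher in endothelial-like cells, at 122 and 1006 CPM. It is abundant in macrophage-like and dendritic-like cells, at 19720 CPM in dendritic-like cells at 6 weeks and 27210 CPM in macrophage-like cells at 9 weeks. Free RNA was estimated at 0.772% and 1.69% of UMIs in adrenocortical-like cells. It was not subtracted for these related genes, and its part in the cortical Cd74 level was not tested. Nor were the cortical clusters weighted alike for the related genes, so the part of the cluster mix in their calls was not tested. Of the 11 genes in the list of IGF ligands, receptors and binding-protein proteases 5 were measured in adrenocortical-like cells, 2 were higher and 0 lower: Igf1 at 4.98 and 16.3 CPM, and Irs2, a signalling adaptor, at 8.63 and 20 CPM. Fgfr4, Cd44, Igf1 and Irs2 reached 10 CPM only in the library where they were high. Igf1 was highest in macrophage-like cells, at 221 and 148 CPM. In the plasminogen list 4 of 8 genes were measured, 0 were higher and 1 lower. It was Lrp1, the clearance receptor of protease and inhibitor complexes, at 151 and 83.25 CPM. Of 14 other metalloproteases and inhibitors 8 were measured in endothelial-like cells, 1 was higher and 1 lower, against 1.34% and 1.26% of all genes measured there. Adamts5, an aggrecan-cleaving protease, stood at 97.15 and 170 CPM, and Mmp11 at 35.3 and 16.8 CPM. Pdgfra and Pdgfrb, the receptors of Pdgfa and Pdgfb, did not exceed 0.906 CPM in any of the 8 classes at either age.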

How the data were processed

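Single-cell RNA-seq (Chromium 3′ v3.1) counts were read for 1 library per age. Per the submitters' processing notes, the authors used Cell Ranger 6.0.1 and Seurat with the mm10 build; no source used here gives the annotation release. The deposited values are whole UMI counts per gene and cell, per the file headers of the matrices, with 8880 and 10812 barcodes. Everything after the counts was computed here with Python 3.11.15, scanpy 1.11.5, leidenalg 0.10.2, numpy 2.4.6 and scipy 1.17.1.

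Cells with under 500 genes (161 and 221), over 25% mitochondrial UMIs (111 and 64) or called as doublets by simulated doublets (475 and 586) were removed. The 2000 most variable genes, 30 principal components and Leiden clustering at resolution 1 gave clusters named from marker lists. The scoring, its thresholds and the splitting of unclear clusters were chosen after seeing the data, over several versions, as was the restriction of the highest-level class to the 8 compared classes with at least 3 UMIs. The members and the lists of related genes were chosen with earlier results of these data known.

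For each class, the UMIs of a library were added up and divided by the class total (CPM), with exact Poisson 95% intervals; ratios without a pseudocount have exact conditional intervals. A log2 ratio is log2 of (9-week CPM + 5) over (6-week CPM + 5), which understates changes of low genes. Named genes were the members; of each related list at most 3 per direction were named in adrenocortical-like cells and at most 2 in others. Shares of cells were also taken with each cell thinned to 2000 UMIs. The calculation was tested on simulated data with counting error only. That checks the arithmetic and does not cover differences between animals, cells or the mix of clusters. With 1 library per age there was no test. Alternatives changed the pseudocount to 1 CPM, the scaling, the filters, doublet removal, cluster weights and resolution, and subtracted free RNA, estimated at 0.772% and 1.69% of UMIs in adrenocortical-like cells, 3.09% and 4.76% in endothelial-like, 3.14% and 3.65% in macrophage-like, 2.80% and 2.86% in dendritic-like and 3.70% and 4.29% in T/NK-like cells. Cluster weighting used clusters with at least 20 cells in each library, which left 1 cluster, with nothing to weight, in neutrophil-like, monocyte-like and B cell-like cells. The weight of a cluster was its share of the cells of these clusters over both libraries. Weights were the same at both ages but differed between clusters.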

Additional observations from a re-analysis of the deposited data

How the results depend on the processing

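Of 39 calls of a member in a class, 20 were no longer made with clusters weighted alike (6 in adrenocortical-like, 4 in macrophage-like and 10 in neutrophil-like cells), 13 with called doublets kept, 9 with at least 1000 genes per cell, 8 at resolution 0.5, 7 with free RNA subtracted, 5 with trimmed mean scaling, and 0 without the filter or with a pseudocount of 1 CPM; the causes were not tested. In neutrophil-like, monocyte-like and B cell-like cells that weighting left 1 cluster, so its values there are of 1 cluster alone; in neutrophil-like cells it is cluster 7 with cluster 12 dropped. No paired analysis was possible because each age has 1 library, and none could be left out.

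Counts of members called are given as higher or lower at 9 weeks. At resolution 0.5, the count higher was 2 in B cell-like (1 in the values reported), 1 in dendritic-like (2) and 1 in monocyte-like cells (3), and the count lower 5 in B cell-like (1) and 4 in dendritic-like cells (1). With at least 1000 genes, the count higher was 3 in B cell-like, 1 in T/NK-like (2), 1 in dendritic-like and 3 in neutrophil-like cells (5), and the count lower 7 in dendritic-like and 1 in endothelial-like cells (0). With doublets kept, the count higher was 4 in B cell-like, 1 in dendritic-like and 6 in monocyte-like cells, and the count lower 0 in B cell-like and 2 in dendritic-like cells. With clusters weighted alike, the count higher was 1 in adrenocortical-like (7), 5 in monocyte-like and 1 in neutrophil-like cells, and the count lower 0 in macrophage-like (3) and 1 in neutrophil-like cells (6). With free RNA subtracted, the count higher was 0 in T/NK-like cells, and the count lower 0 in B cell-like and 1 in endothelial-like cells. Without the filter, the count higher was 5 in monocyte-like and 10 in neutrophil-like cells, and the count lower 3 in B cell-like, 2 in dendritic-like and 1 in endothelial-like cells. With a pseudocount of 1 CPM, the count higher was 3 in B cell-like and the count lower 2 in dendritic-like cells. With trimmed mean scaling, the count higher was 1 in dendritic-like cells, and the count lower 1 in adrenocortical-like (0), 2 in dendritic-like and 3 in neutrophil-like cells.

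Log2 ratios that changed sign under that setting were, in cluster 7 alone, those of Cxcl2 (0.074), Igfbp6 (1.29), Igfbp7 (-0.0080), Inhba (-0.90, below the filter there), Mif (0.50) and Timp2 (0.31), and, with clusters weighted alike, Pdgfa (-0.11) and Timp1 (-0.16) in adrenocortical-like cells, and Spp1 (0.076) in macrophage-like cells. With doublets kept they were Igfbp7 (-1.04) and Timp3 (-1.70) in neutrophil-like and Timp3 (0.28) in B cell-like cells, with at least 1000 genes Igfbp6 (0.80) and Igfbp7 (-0.87) in neutrophil-like cells, and at resolution 0.5 Igfbp3 (-0.88) in monocyte-like cells. The class with the most UMIs was the same at both ages for 29 or 30 members under the alternatives tried, but not always the same class: Il6, Igfbp6 and Cxcl12 changed source with doublets kept or at least 1000 genes, as given with their sources. Levels of low members are limited by depth, with class totals down to 318240 UMIs in neutrophil-like cells at 6 weeks.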

Other observations

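Cells outside the compared classes carried several members, in numbers too small for a comparison between ages. In the mesenchymal-like cells, 10 at 6 weeks and 4 at 9 weeks, Igfbp7 stood at 3422 CPM (2952 to 3944) and 3691 CPM (3124 to 4331), Igfbp6 at 342 CPM (206 to 534) and 320 CPM (170 to 547), and Mmp2 at 324 CPM (192 to 512) and 246 CPM (118 to 452.5). Cxcl12 had 23 UMIs there at 6 weeks and 2 at 9 weeks. In a cluster of 4 and 7 cells with mural and glial markers, Igfbp7 stood at 4031 and 3797 CPM and Pdgfa at 738 CPM (393 to 1262) and 475 CPM (228 to 873). In 12 and 30 mast or basophil-like cells Il6 had 9 UMIs at each age, and Hgf 8 and 14.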
